A study of Mus musculus with 10 samples.

Results

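The genes described here serve the uptake, activation and mitochondrial oxidation of fatty acids in the mouse heart, together with the PPAR transcription factors that govern them and some of their target genes. The 39 genes were given by name. Ensembl identifiers were matched to symbols, which gave a row in the count table for 37 of them, among 15341 genes in all, and all 37 passed the filter on low counts that left 12992 tested genes. Cpt1b and Etfb had no row and are not analysed here. The hearts came from 5 plasma S1Pless male mice (Sphk1f/-:Sphk2f/-:Mx1Cre+) and 5 littermate control males (Sphk1f/-:Sphk2f/-:Mx1Cre-). Both groups thus carried 1 floxed and 1 null allele of each sphingosine kinase gene, and only the S1Pless mice carried the recombinase, whose Mx1 promoter is inducible by interferon and is active in blood-forming and some other cells. The labels give no age, no inducing treatment and no feeding state. Sphingosine 1-phosphate (S1P) is a lipid messenger that these kinases make.

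The working heart draws most of its energy from long-chain fatty acids. Lipoprotein lipase frees them from blood triglycerides, carriers bring them into the cardiomyocyte, acyl-CoA synthetase activates them, and the carnitine shuttle carries them into mitochondria, where repeated rounds of beta-oxidation cut off acetyl-CoA and pass electrons to the respiratory chain. Fatty acids themselves bind the PPAR nuclear receptors, which with RXR partners and the co-activator PGC-1alpha raise transcription of many of these genes, in particular during fasting.

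Libraries held 16354071 to 20832566 counts. Levels are in CPM, that is, counts relative to the library total after TMM scaling, and 1 count was worth 0.0451 to 0.0658 CPM. Groups were compared with edgeR's quasi-likelihood test, and p-values were adjusted by the Benjamini-Hochberg method over all 12992 tested genes. A gene is said to have risen or fallen only at an adjusted p below 0.05. S1Pless replicate 3 stood apart from the other hearts. It had 167 counts of Myl7 and 74 of Sln, which mark atrial muscle, against 0 to 3 counts of either gene in the other 9 hearts, and 18.2 CPM of Myl4 against 1.65 to 3.28 CPM. Dkk3 was also highest there (9.87 CPM), Nppa, the most abundant atrial marker, was the lowest of the S1Pless hearts (77.9 CPM against 93.1 to 333 CPM), Bmp10 had no row, and the atrial markers summed to 120 CPM, within the 27.3 to 340 CPM of the other hearts. This heart also had the highest levels of several PPAR target genes. Values are given with and without it. Because it was singled out in part by genes described here, values without it are descriptions, with no test.

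PPAR and RXR receptors bind a pair of AGGTCA half-sites 1 base apart, and the promoter stretches shown here belong to the member that fell and its neighbour, to a member with a wide range between hearts and to a member whose groups did not overlap. They are taken from RefSeq (GRCm38.p6, an older build than the GRCm39 named for the counts) and run up to the base before the start site. Capitals mark a match to AGGTCANAGGTCA with at most 2 mismatches. Hadha and Hadhb, which encode both subunits of the trifunctional protein, lie head to head with 273 bases from start to start, so that 1 stretch of 272 bases serves as the upstream region of both (chr5:30154981-30155252, plus strand, on which Hadhb is read to the right).
Hadha and Hadhb: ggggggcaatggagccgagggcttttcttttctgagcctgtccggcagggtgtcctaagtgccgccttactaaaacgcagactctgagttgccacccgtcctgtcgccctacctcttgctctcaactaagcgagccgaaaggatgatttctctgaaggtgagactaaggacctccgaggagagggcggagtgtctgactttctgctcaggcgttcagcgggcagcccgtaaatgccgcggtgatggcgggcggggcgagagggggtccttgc
Ucp3 (chr7:100472741-100472990, plus strand): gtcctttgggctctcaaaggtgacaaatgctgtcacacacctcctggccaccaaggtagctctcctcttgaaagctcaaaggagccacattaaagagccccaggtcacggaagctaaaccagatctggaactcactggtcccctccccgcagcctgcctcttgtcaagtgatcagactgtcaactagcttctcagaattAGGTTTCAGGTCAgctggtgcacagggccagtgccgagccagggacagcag
Echs1 (chr7:140116422-140116671, minus strand): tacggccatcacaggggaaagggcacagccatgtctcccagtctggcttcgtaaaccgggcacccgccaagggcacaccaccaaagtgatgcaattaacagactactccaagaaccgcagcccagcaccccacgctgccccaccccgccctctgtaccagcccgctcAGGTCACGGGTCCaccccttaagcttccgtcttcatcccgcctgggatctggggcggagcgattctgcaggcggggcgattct

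Windows from 250 bases before the start to 50 after it were found for 32 of the 39 members, 36 windows in all. Both strands were searched. A match to AGGTCANAGGTCA with at most 2 mismatches was present in 5 of these 36 windows (Cd36, Echs1, Etfa, Slc25a20 and Ucp3) and in 3.86% of all 32851 windows of the same length. The stretches of Ucp3 and Echs1 printed above are both among these 5 and so do not represent the members. The ERR element TNAAGGTCA, whose core shares letters with the half-site, was searched without mismatches and was in 0 of the 36 and in 1.28% of all windows. The stretch between Hadha and Hadhb held neither. These are descriptions of letters near the start sites and say nothing on binding.

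All 37 measured members had a log2 fold change below 0 in S1Pless hearts, but most differences were small and 1 passed the test. Of all tested genes 52.6% lay below 0. The median member stood at -0.28 on the log2 scale against -0.01 for all tested genes, and 32 of the 37 had a log2 fold change of -0.2 or lower, which 14.3% of all tested genes had. Hadhb fell and no member rose, while 0.316% of all tested genes fell, 3.4% rose and 3.72% were called in either direction. DESeq2 called 8 members lower (Lpl, Cpt2, Crat, Acads, Hadhb, Echs1, Etfa and Etfdh), and 2.03% of all tested genes. Limma-voom with quality weights called 2 lower (Hadhb and Acads), and 0.462% of all tested genes. An unadjusted p below 0.05 was found for 16 of 37 members and for 2581 of 12992 genes. The 2 groups did not overlap in 5 members (Lpl, Acads, Hadhb, Echs1 and Etfdh), all lower in S1Pless hearts. Over all tested genes 6.35% did not overlap, and 1.82% did so with S1Pless hearts lower. The heat map of the members shows the shift over most rows in S1Pless replicates 1, 2, 4 and 5, while replicate 3 is near the control level in many.

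**Figure D1:**
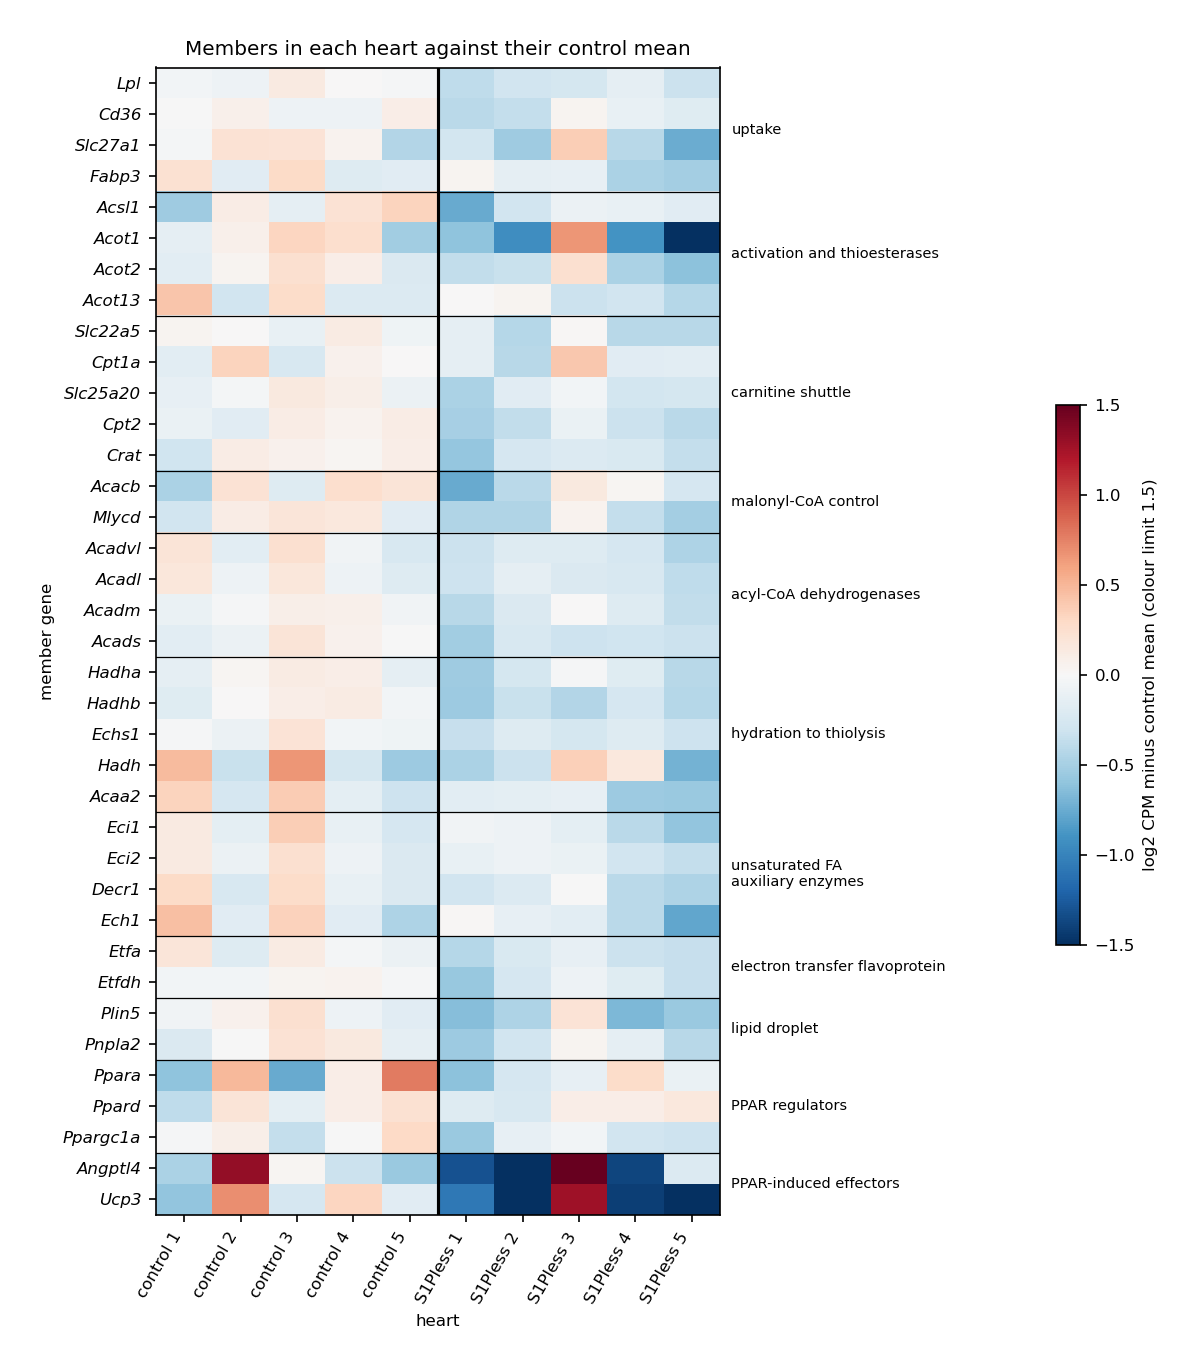
Each row is a member gene, grouped by step, and each column a heart; colour is log2 CPM minus the gene's mean log2 CPM in the 5 control hearts, with values beyond 1.5 drawn at the end colour. The median member of each S1Pless heart lay from -0.42 to -0.04, with S1Pless replicate 3 at -0.04, and that of each control heart from -0.13 to 0.15.

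Cardiomyocyte markers moved with the members. In bulk RNA, fewer cells of a type and less RNA per cell cannot be told apart. The summed level of 12 cardiomyocyte markers was 90587 CPM, 88632 CPM, 95964 CPM, 87586 CPM and 88382 CPM in control replicates 1 to 5 and 74704 CPM, 83508 CPM, 79849 CPM, 80533 CPM and 71006 CPM in S1Pless replicates 1 to 5. The groups did not overlap in this sum. All 12 markers had a log2 fold change below 0 (median -0.20), and 0 of 12 passed edgeR's test (2 with an unadjusted p below 0.05; DESeq2 called 1, Pln). The summed level of the 37 members was 23300 CPM to 26872 CPM in controls and 18797 CPM to 22367 CPM in S1Pless hearts, also without overlap. Their ratio to the summed cardiomyocyte markers was 0.272 ± 0.0070 in controls (0.264 to 0.280) and 0.261 ± 0.0134 in S1Pless hearts (0.244 to 0.280; SD, n = 5 each), and here the groups overlapped. Libraries were also scaled to the cardiomyocyte markers, an alternative added once the values were known. In that fit 0 members passed, and of all 12992 tested genes 5 fell and 2260 rose. Such scaling changes only the factor of each library, so it moves all genes of a library together. Under that scaling 31 of 37 lay below 0 (Cd36, Acot13, Cpt1a, Eci2, Ppard and Angptl4 did not), the median member stood at -0.06, and the median of all tested genes at 0.20. With library totals alone the median of all tested genes moved from -0.01 to 0.12, and 35 of 37 members lay below 0 (Cpt1a and Ppard did not).

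**Figure D2:**
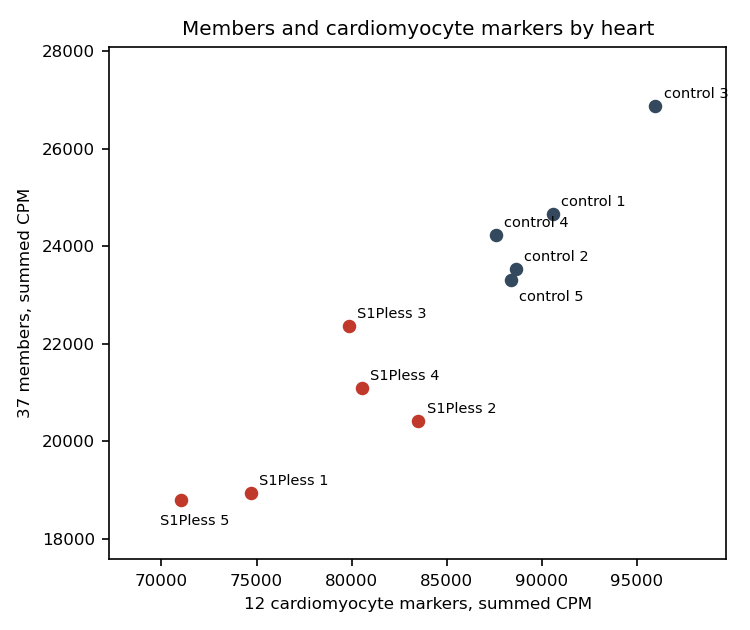
Each point is a heart; the horizontal axis is the summed CPM of 12 cardiomyocyte markers and the vertical axis the summed CPM of the 37 members, and neither axis starts at 0. All 5 S1Pless hearts lie below and to the left of all 5 control hearts.

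Some markers of other cell types rose in S1Pless hearts. Macrophage markers summed to 328 CPM to 424 CPM in controls and 508 CPM to 1279 CPM in S1Pless hearts, with replicate 5 highest, and 4 of 10 rose (C1qa, C1qc, Csf1r and Mrc1). Fibroblast markers summed to 969 CPM to 1185 CPM and 1213 CPM to 1803 CPM, and 1 of 8 rose (Dpep1). Endothelial markers summed to 1140 CPM to 1303 CPM and 1212 CPM to 1456 CPM, and 1 of 8 rose (Erg). Over all tested genes 3.4% rose. DESeq2 called 9 macrophage, 4 fibroblast and 2 endothelial markers higher, beside 764 of all 12992 tested genes. Limma-voom with quality weights called 7, 1 and 2 of them higher, beside 529 of all 12992. Fat cells also express many of the members, and their defining markers were at or near 0. Adipoq had 0 to 7 counts, Plin1 0 to 6 and Lep 0 to 3 in any library, Ucp1 had no row, and Lipe and Cidea were the only 2 of the 10 adipocyte markers abundant enough to be tested (neither called). The part that cell composition has in the values of the members was not tested. The scaling above moves all genes of a library together and cannot separate that part.

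Among the genes of uptake, lipoprotein lipase was the most abundant member of all. Divided by the length of the principal transcript, mean control levels ran from 2.39 CPM per kilobase for Angptl4 to 1834 CPM per kilobase for Lpl, followed by Fabp3 (1420 CPM per kilobase), Ech1 (842 CPM per kilobase) and Cd36 (642 CPM per kilobase). Lpl (ENSMUSG00000015568) had 7333 CPM, 7160.2 CPM, 8274 CPM, 7552 CPM and 7423 CPM in control replicates 1 to 5 and 5811 CPM, 6170.4 CPM, 6281 CPM, 6887 CPM and 6023 CPM in S1Pless replicates 1 to 5. Every S1Pless heart lay below every control, with a log2 fold change of -0.28 ± 0.10 (SE), which did not pass edgeR's test (adjusted p = 0.125). Cd36, the fatty acid translocase of the cell membrane, had 2061 CPM to 2326 CPM in controls, and S1Pless hearts had 1647 CPM to 2021 CPM apart from 2239 CPM in replicate 3. Without replicate 3 the groups did not overlap in Cd36. The transport protein gene Slc27a1 had a log2 fold change of -0.29 ± 0.19, and the cytosolic carrier Fabp3 of -0.24 ± 0.14, and both groups overlapped in each.

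In activation and its reversal no member passed the test with all hearts. Acsl1, which makes acyl-CoA at the mitochondrial surface, had 588 CPM to 1073 CPM in controls and 503 CPM to 800 CPM in S1Pless hearts. Acot1 and Acot2 encode the cytosolic and the mitochondrial thioesterase that release the fatty acid again, and both are known PPARalpha targets. Acot2 (ENSMUSG00000021226) had 52.2 CPM, 59.985 CPM, 68.8 CPM, 62.2 CPM and 49.9 CPM in controls and 45.0 CPM, 46.1 CPM, 68.7 CPM, 42.0 CPM and 37.9 CPM in S1Pless hearts. Acot1 (ENSMUSG00000072949) was far less abundant, at 7.37 CPM, 8.55 CPM, 10.1 CPM, 9.59 CPM and 5.64 CPM in controls and 5.33 CPM, 4.25 CPM, 12.8 CPM, 4.33 CPM and 2.80 CPM in S1Pless hearts. S1Pless replicate 3 was above all controls in Acot1 and just under the highest control in Acot2, and in both genes the other 4 S1Pless hearts lay below all controls. With all hearts neither passed edgeR's test (adjusted p = 0.440 for Acot1 and 0.292 for Acot2). The other S1Pless hearts were 1.97-fold lower than controls in Acot1 and 1.37-fold lower in Acot2. The longest open reading frames of their transcripts are 95.5% identical over 1239 aligned bases, and 30.9% of all 100-base windows of Acot1 occur unchanged in Acot2, so the split of reads between them is uncertain. Acot13, a thioesterase of another family, had a log2 fold change of -0.22 ± 0.15 with all hearts and -0.18 ± 0.17 without replicate 3.

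In the carnitine shuttle, 4 of 5 measured genes had an unadjusted p below 0.05 and none passed after adjustment. Cpt2 (ENSMUSG00000028607), the inner membrane transferase that restores acyl-CoA in the matrix, had 197 CPM, 187 CPM, 228 CPM, 218 CPM and 228 CPM in controls and 150 CPM, 164 CPM, 197 CPM, 170 CPM and 159 CPM in S1Pless hearts. Only S1Pless replicate 3 reached into the control range. The log2 fold change was -0.33 ± 0.10 with all hearts (edgeR adjusted p = 0.0857) and -0.39 ± 0.10 without replicate 3. Slc25a20, the carnitine-acylcarnitine exchanger, had a log2 fold change of -0.24 ± 0.10, Slc22a5, the carnitine importer, of -0.27 ± 0.10, and Crat, which makes acetylcarnitine, of -0.32 ± 0.11 (edgeR adjusted p from 0.123 to 0.198). Cpt1a, the liver-type outer membrane transferase, differed least in this step, at -0.08 ± 0.14, with its highest level of all 10 hearts, 68.4 CPM, in S1Pless replicate 3.

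Malonyl-CoA blocks the first step of the shuttle. Acacb makes it at the mitochondrion and Mlycd degrades it. Mlycd (ENSMUSG00000074064) had 97.1 CPM, 128 CPM, 134 CPM, 132 CPM and 106 CPM in controls and 86.7 CPM, 86.5 CPM, 123 CPM, 92.2 CPM and 83.4 CPM in S1Pless hearts. With all hearts it did not pass (log2 fold change -0.34 ± 0.13, edgeR adjusted p = 0.158), and without replicate 3, which lay inside the control range, the level was 1.36-fold lower. Acacb had 268 CPM to 442 CPM in controls and 220.0 CPM to 412 CPM in S1Pless hearts. Its log2 fold change was -0.24 ± 0.18, so that the genes with opposite effects on malonyl-CoA both had values below 0.

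Beta-oxidation proper held the only member that fell with all hearts included. Hadhb (ENSMUSG00000059447) encodes the thiolase subunit of the trifunctional protein of the inner membrane, which carries out the last steps on long chains. It had 579 CPM, 659 CPM, 701 CPM, 712 CPM and 637 CPM in control replicates 1 to 5 and 448 CPM, 521 CPM, 483 CPM, 552 CPM and 487 CPM in S1Pless replicates 1 to 5. Every S1Pless heart lay below every control, and replicate 3 was not set apart. The level fell 1.32-fold (log2 fold change -0.40 ± 0.10, edgeR adjusted p = 0.0373). The call was lost in 8 of 10 fits that left out a heart (adjusted p up to 0.109, without control replicate 4), S1Pless replicate 3 among them (0.0751), and held without control replicate 1 or S1Pless replicate 4. Library totals alone (0.125) and scaling to cardiomyocyte markers (0.188) also ended it, as did leaving out control replicate 2 with S1Pless replicate 3. Over all alternatives its adjusted p ran from 0.000101 with DESeq2 to 0.188, and its log2 fold change from -0.46 to -0.19.

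Hadha (ENSMUSG00000025745), the partner subunit with hydratase and long-chain dehydrogenase activity, shares the upstream stretch printed above with Hadhb. It had 1323 CPM, 1485 CPM, 1583 CPM, 1557 CPM and 1325 CPM in controls and 1004 CPM, 1204 CPM, 1432 CPM, 1282 CPM and 1088 CPM in S1Pless hearts. The log2 fold change was -0.28 ± 0.12 (edgeR adjusted p = 0.204). S1Pless replicate 3 reached the control range in Hadha and not in Hadhb, and whether the 2 genes differ in their response was not tested. Echs1, the short-chain hydratase of the matrix, had 296 CPM to 362 CPM in controls and 247 CPM to 275 CPM in S1Pless hearts without overlap (log2 fold change -0.27 ± 0.09, edgeR adjusted p = 0.120). Hadh, the medium and short chain dehydrogenase, varied widely within both groups, from 205 CPM to 474 CPM in controls and from 183 CPM to 384 CPM in S1Pless hearts. Acaa2, the matrix thiolase, had a log2 fold change of -0.32 ± 0.16.

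The 4 acyl-CoA dehydrogenases, which open each round for chains of different length, all had an unadjusted p below 0.05 and none passed after adjustment. Acads (ENSMUSG00000029545), for short chains, had 175 CPM, 183 CPM, 223 CPM, 204 CPM and 194 CPM in controls and 136 CPM, 166 CPM, 158 CPM, 159 CPM and 157 CPM in S1Pless hearts. The groups did not overlap, and the log2 fold change of -0.34 ± 0.10 had the lowest adjusted p of the members that were not called (0.0675 in edgeR's test). Limma-voom with quality weights and DESeq2 called it. Acadvl, for very long chains, had a log2 fold change of -0.29 ± 0.12, Acadl, for long chains, of -0.26 ± 0.10, and Acadm, for medium chains, of -0.23 ± 0.10 (edgeR adjusted p from 0.180 to 0.235). Leaving out replicate 3 moved Acadvl, Acadl and Acads little (-0.31, -0.27 and -0.34), and Acadm to -0.29.

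**Figure D3:**
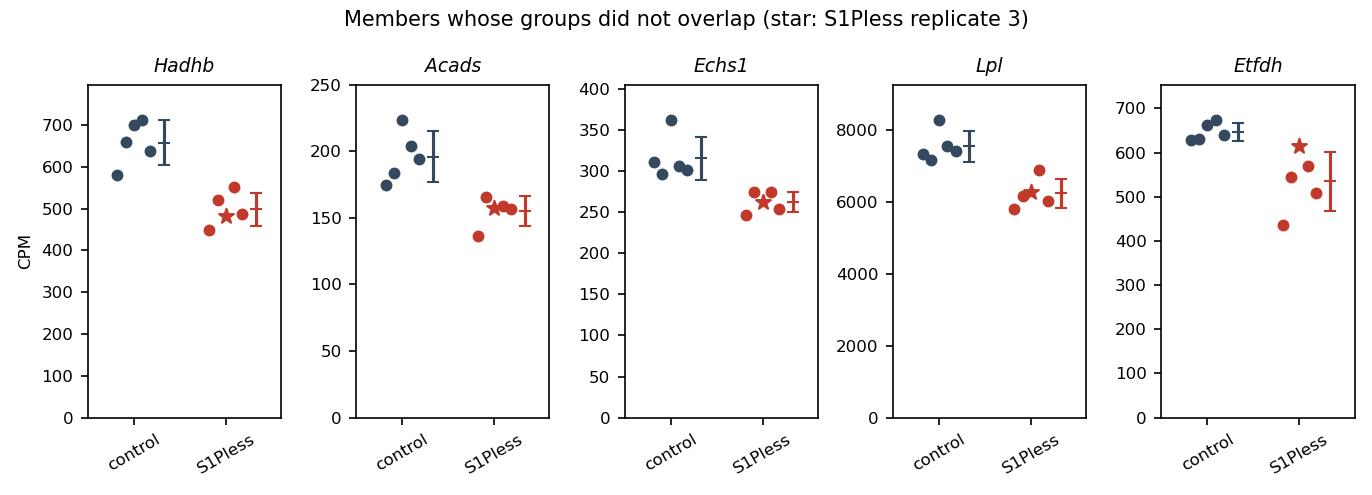
CPM of the 5 members whose groups did not overlap; each point is a heart, stars mark S1Pless replicate 3, the bars beside the points give mean and SD (n = 5 each), and axes start at 0. In Hadhb controls had 579 CPM to 712 CPM and S1Pless hearts 448 CPM to 552 CPM.

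The enzymes that deal with double bonds differed less from the spread between hearts. Decr1 (ENSMUSG00000028223), the dienoyl-CoA reductase, had 524 CPM, 365 CPM, 521 CPM, 397 CPM and 371 CPM in controls and 351 CPM, 372 CPM, 429 CPM, 326 CPM and 312 CPM in S1Pless hearts (log2 fold change -0.28 ± 0.13, edgeR adjusted p = 0.261). Control replicates 1 and 3 were high and the groups overlapped. The isomerases Eci1, Eci2 and Ech1 had log2 fold changes of -0.26 ± 0.14, -0.19 ± 0.10 and -0.31 ± 0.19. Controls 1 and 3 were also the highest controls in each of them. The same held in Acaa2, Acot13, Fabp3, Hadh, Etfa, Echs1, Acadl and Acadvl.

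Libraries also differed in how level went with transcript length. The mean log2 CPM of tested genes longer than 4570.25 bases (the upper quartile) minus that of genes shorter than 1965 bases (the lower quartile) was 0.39 and 0.28 in control replicates 1 and 3 and 0.64 to 0.80 in the other controls. In S1Pless replicates 1 to 5 it was 0.39, 0.52, 0.62, 0.77 and 0.75. Controls 1 and 3 were the highest controls in all of the shortest members, from Acot13 (721 bases) to Eci2 (1746 bases). Hadh (1789 bases), Acadl (1916 bases), Acadvl (2168 bases) and Decr1 (2959 bases) also had this pattern. Control replicate 1 was instead the lowest control in Slc25a20 (1783 bases), Pnpla2 (1799 bases) and Acads (1870 bases). In the long Acsl1, Acacb, Ppara, Ppard, Cpt1a and Ppargc1a (3277 to 8788 bases), controls 1 and 3 were the lowest controls. In Lpl, Hadha, Crat, Cd36 and Angptl4 (3308 to 4224 bases) they were not. The part of length in the members' values was not tested beyond a covariate. With this measure as a covariate, also added once values were known, all 37 members lay below 0 and 6 fell: Crat, Cpt2, Hadhb, Acads, Echs1 and Lpl. In that fit 270 of all 12992 tested genes fell and 697 rose.

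Electrons from the dehydrogenases pass through the electron transfer flavoprotein to ubiquinone. Etfa (ENSMUSG00000032314), its alpha subunit, had 771 CPM, 597 CPM, 742 CPM, 663 CPM and 640 CPM in controls and 507 CPM, 578 CPM, 625 CPM, 542 CPM and 536 CPM in S1Pless hearts (log2 fold change -0.29 ± 0.10, edgeR adjusted p = 0.137). Only S1Pless replicate 3 reached above the lowest control, by a small margin. Etfdh, the oxidoreductase that hands the electrons on, had 629 CPM to 674 CPM in controls and 437 CPM to 614 CPM in S1Pless hearts without overlap (log2 fold change -0.28 ± 0.10, edgeR adjusted p = 0.158).

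Lipid droplets buffer the supply. Plin5 (ENSMUSG00000011305), the perilipin that ties droplets to mitochondria and a known PPARalpha target, had 106 CPM, 114 CPM, 130 CPM, 104 CPM and 97.7 CPM in controls and 70.7 CPM, 79.9 CPM, 126 CPM, 68.6 CPM and 74.6 CPM in S1Pless hearts. Replicate 3 was near the highest control and the other S1Pless hearts lay below all controls. Its log2 fold change was -0.39 ± 0.16 with all hearts (edgeR adjusted p = 0.179), and the level was 1.496-fold lower without replicate 3. Pnpla2, the triglyceride lipase of the droplet, had a log2 fold change of -0.26 ± 0.13 with all hearts, which did not pass, and -0.34 ± 0.13 without replicate 3.

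The receptors themselves were low in abundance and did not separate the groups. Ppara (ENSMUSG00000022383), the main PPAR of fatty acid oxidation, had 15.3 CPM, 32.6 CPM, 13.8 CPM, 25.001 CPM and 39.9 CPM in controls and 15.2 CPM, 19.7 CPM, 21.5 CPM, 28.2 CPM and 21.7 CPM in S1Pless hearts. All S1Pless values lay within the control range, and the log2 fold change was -0.26 ± 0.27 (edgeR adjusted p = 0.636). For Ppard the mean was 36.7 ± 6.16 CPM (controls) against 36.0 ± 4.52 CPM (S1Pless; SD, n = 5 each), a log2 fold change of -0.03 ± 0.12. Ppargc1a (ENSMUSG00000029167), which encodes PGC-1alpha, had 112 CPM, 121 CPM, 88.01 CPM, 113 CPM and 139 CPM in controls and 76.9 CPM, 104 CPM, 110 CPM, 92.5 CPM and 91.4 CPM in S1Pless hearts (log2 fold change -0.27 ± 0.13, edgeR adjusted p = 0.253). Replicate 3 was not the highest S1Pless heart in Ppara or Ppard.

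Ucp3 and Angptl4, both induced by fatty acids through PPARs, varied over a wider fold range between hearts than the other members measured. Ucp3 (ENSMUSG00000032942), an uncoupling protein homologue of muscle mitochondria, had 29.1 CPM, 71.1 CPM, 36.8 CPM, 55.01 CPM and 38.9 CPM in controls and 20.9 CPM, 7.81 CPM, 106 CPM, 16.4 CPM and 12.8 CPM in S1Pless hearts. S1Pless replicate 3 was the highest of all 10 hearts, 7.33 times the mean of the other S1Pless hearts, and those 4 were below all controls. With all hearts the log2 fold change was -0.51 ± 0.67 (edgeR adjusted p = 0.720), and without replicate 3 it was -1.67 ± 0.31, a level 3.17-fold lower. Angptl4 (ENSMUSG00000002289), a secreted inhibitor of lipoprotein lipase, had 5.00 CPM, 17.3 CPM, 7.08 CPM, 5.56 CPM and 4.69 CPM in controls and 2.80 CPM, 1.25 CPM, 22.98 CPM, 2.67 CPM and 6.02 CPM in S1Pless hearts. Control replicate 2 and S1Pless replicate 3 stood far above the rest of their groups. The log2 fold change of Angptl4 was -0.18 ± 0.74 with all hearts (edgeR adjusted p = 0.923) and -1.31 ± 0.48 without replicate 3.

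**Figure D4:**
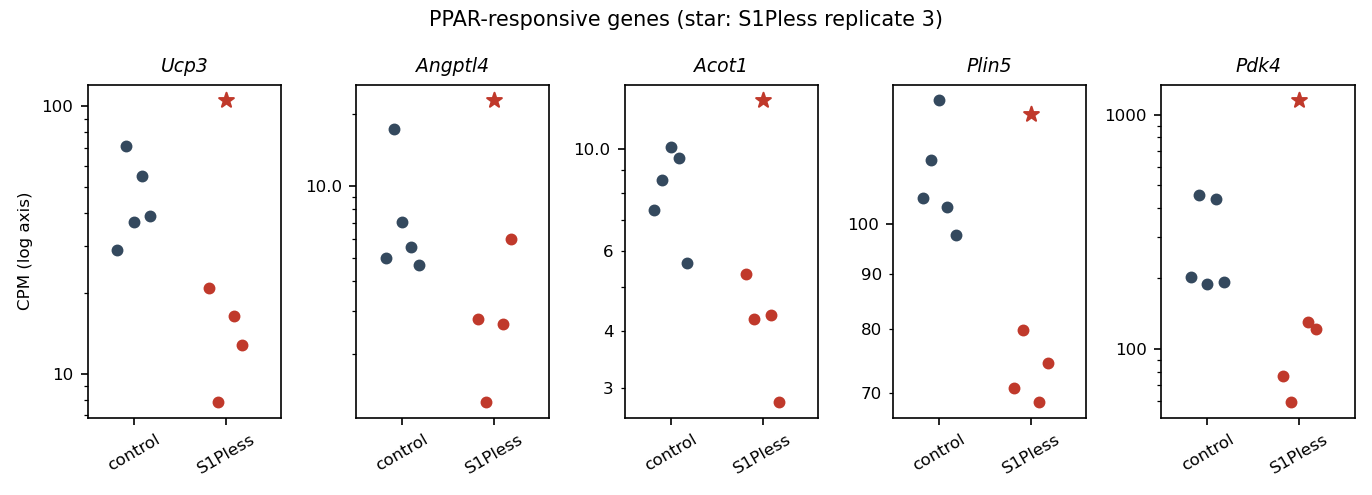
CPM on log axes that do not start at 0 for 4 members and Pdk4; each point is a heart and stars mark S1Pless replicate 3. In Ucp3, Plin5, Acot1 and Pdk4 the other 4 S1Pless hearts lie below all controls, while replicate 3 is the highest of all hearts in Ucp3, Angptl4, Acot1 and Pdk4.

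Pdk4, the PPAR-responsive kinase that turns off pyruvate dehydrogenase, behaved like Ucp3 and was picked out after its values were seen. It had 202 CPM, 456 CPM, 190.0 CPM, 435 CPM and 193 CPM in controls and 76.4 CPM, 59.1 CPM, 1161 CPM, 130 CPM and 122 CPM in S1Pless hearts. Its log2 fold change was 0.07 ± 0.83 with all hearts (edgeR adjusted p = 0.974) and -1.60 ± 0.34 without replicate 3.

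S1Pless replicate 3 was the highest S1Pless heart in 24 of 37 members and the highest of all 10 in Slc27a1, Acot1, Cpt1a, Angptl4 and Ucp3. Without it the median member stood at -0.34, 32 of 37 log2 fold changes moved down, and all 37 stayed below 0. In that fit 6 members were past the threshold (Acot1, Acot2, Cpt2, Mlycd, Plin5 and Ucp3), beside 0.421% of all tested genes lower, and Hadhb was not. Replicate 3 was the highest S1Pless heart in all 6, so that leaving it out lowers their S1Pless mean by construction, and neither the count nor its share is a test of the genotypes. The remaining 4 S1Pless hearts did not overlap with controls in 17 members, beside 8.67% of all tested genes, which carries the same limit. Control replicate 2, which was high in Ucp3, Angptl4 and Pdk4, carries the title number that follows that of S1Pless replicate 3. Control replicate 1 and S1Pless replicate 2 also have consecutive title numbers, and they were the lowest control and the lowest S1Pless heart in Ucp3 (29.1 CPM and 7.81 CPM). S1Pless replicate 2 was also the lowest S1Pless heart in Angptl4 and Pdk4. Control replicate 1 was not the lowest control in Angptl4 (5.00 CPM against 4.69 CPM in replicate 5) or Pdk4 (202 CPM against 190.0 CPM in replicate 3). What the title numbers mean is not stated. With control replicate 2 and S1Pless replicate 3 left out together, the log2 fold change was -1.46 for Ucp3 and -0.57 for Plin5, the 2 members past the threshold in that fit beside 0.177% of all tested genes lower, again as a description. The median member stood at -0.33. The part that atrial tissue has in the levels of replicate 3 was not tested. Its summed cardiomyocyte markers, 79849 CPM, lay within the range of the other S1Pless hearts.

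**Figure D5:**
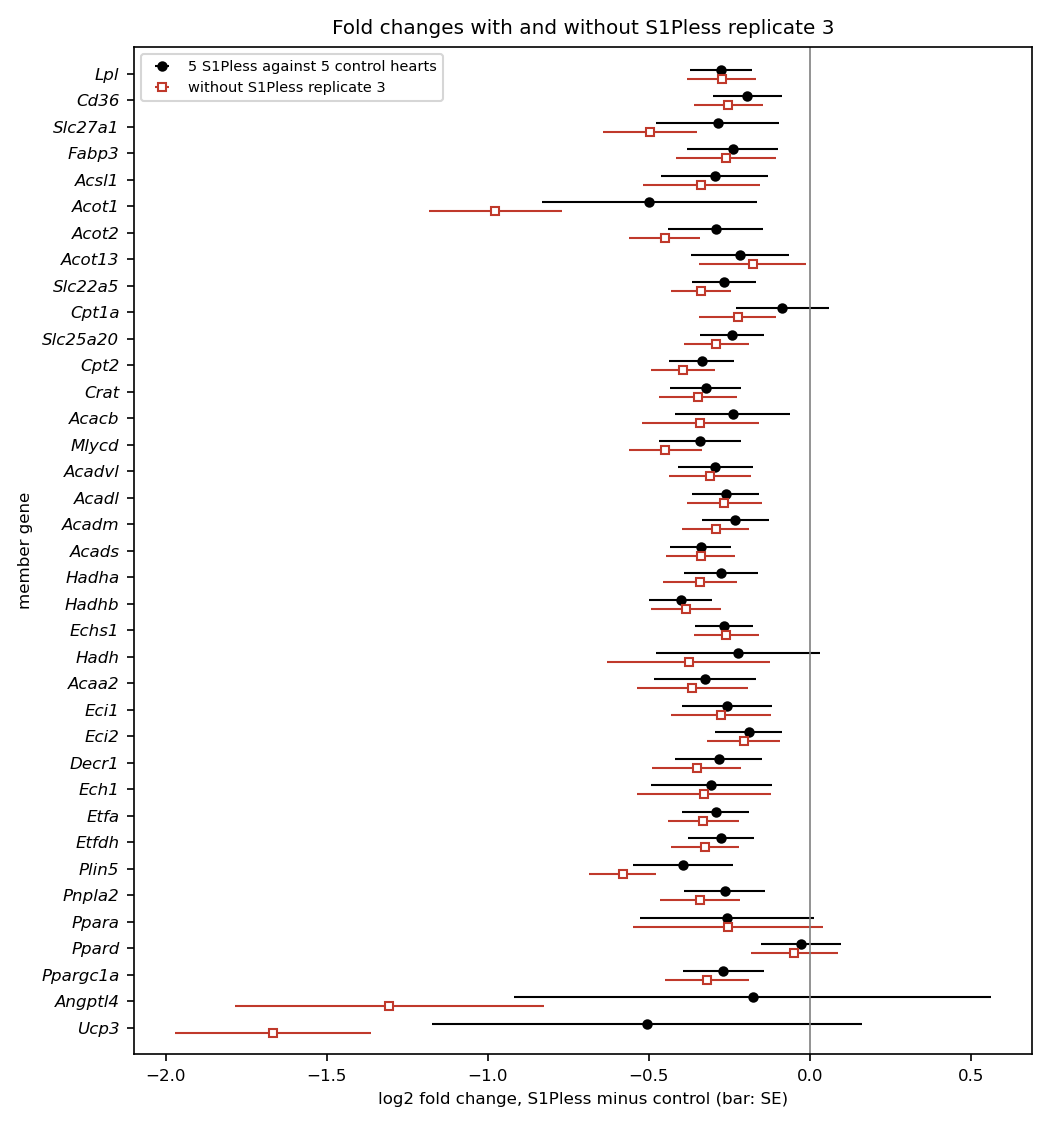
Log2 fold changes of the 37 members, S1Pless minus control, with SE from edgeR; filled circles use 5 against 5 hearts and open squares leave out S1Pless replicate 3. All points lie below 0, and the squares move farthest in Ucp3, Angptl4 and Acot1.

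The wider pathway was less uniform. Of 116 other tested genes of fatty acid handling and PPAR control, 93 lay below 0 and 23 above, with a median log2 fold change of -0.15. EdgeR called 0 of the 116 in either direction, beside 3.72% of all tested genes. An unadjusted p below 0.05 was found for 22 of the 116, beside 2581 of all 12992 tested genes. DESeq2 called 3 of the 116 higher and 6 lower, beside 764 higher and 264 lower (2.03%) of all 12992 tested genes. All 16 genes of lipid droplet and triglyceride turnover lay below 0, with a median of -0.26. Dgat2, which makes triglyceride, had the smallest p there (log2 fold change -0.33 ± 0.10, edgeR adjusted p = 0.0982). In other mitochondrial oxidation genes 21 of 22 lay below 0, and the exception Cpt1c, the neuronal form of the transferase, was at 0.51 ± 0.16 (edgeR adjusted p = 0.0900). Peroxisomal oxidation had 15 of 17 below 0 with a median of -0.17. Abcd3, a peroxisomal fatty acid transporter, had 117 CPM to 138 CPM in controls and 94.7 CPM to 114 CPM in S1Pless hearts without overlap (log2 fold change -0.31 ± 0.09, edgeR adjusted p = 0.0615). All 5 genes of ketone body use lay below 0, with Oxct1, the enzyme that activates ketone bodies, at -0.26 ± 0.11.

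Other lists held genes on both sides of 0. Among further uptake and activation genes 9 of 15 lay below 0, and Acsl5, a long-chain synthetase, was at 0.40 ± 0.12 (edgeR adjusted p = 0.0793). Of 8 tested PPAR-responsive genes outside the members 4 lay below 0, and Ucp2, which macrophages express, was at 0.54 ± 0.16 (edgeR adjusted p = 0.0727). Receptor partners and co-regulators had 16 of 22 below 0. Rxrg, the RXR form of muscle, had the smallest p of them (-0.21 ± 0.08, edgeR adjusted p = 0.169). For AMPK and acetyl-CoA carboxylase genes 7 of 11 lay below 0, and Acly, the citrate lyase of fat synthesis, was at 0.21 ± 0.08 (edgeR adjusted p = 0.182).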

How the data were processed

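Heart RNA was extracted with TRIzol and RNeasy kits and made into stranded mRNA libraries, per the labels' protocols. The authors deposited raw counts per Ensembl gene. STAR 2.7.8a, featureCounts 2.0.1 and GRCm39 are named in the submitters' processing notes. Annotation release, strand setting and handling of multi-mapping reads: not given in the sources used here. Overlapping genes and close paralogs are therefore uncertain.

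The fit used edgeR 4.0.16 in R 4.3.3, with filterByExpr at 10 counts, TMM factors, robust glmQLFit and a two-sided glmQLFTest; SE was derived from the log2 fold change and F. Symbols and principal transcript lengths came from GENCODE M21, in which 20 identifiers had no symbol. Replicates were numbered in accession order and pair no hearts, and p-values measure the spread between the samples listed. Libraries of a group differed by more than counting noise in every pair (chi-square of at least 10.5 for each degree of freedom). On simulated counts for this comparison, over 12992 genes, the test recovered 58% of 1.5-fold and 93% of 2-fold changes, and 5.03% of calls were false. Smaller changes were not simulated, and with all hearts every member differed by less than 1.5-fold (at most 1.42-fold, in Ucp3).

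The members and lists were chosen with earlier results of these data known. By rule, values in every heart are given for called members, for the smallest p in each step without a call and for Ppara, Ppargc1a, Acot1 and Acot2, and the smallest p is named in each wider list. Hadha, Acsl1, Angptl4, Pdk4 and other genes given by ranges were chosen after their values were seen. Alternatives were RLE and upper-quartile factors, library totals alone, DESeq2 1.42.0, limma-voom (limma 3.58.1) with quality weights, no filter, 1 CPM in 5 libraries, removal of haemoglobin and mitochondrially encoded genes, the title number series as covariate, and leaving out each heart. Leaving out a pair of hearts, the length covariate and scaling to cardiomyocyte markers were added after seeing the data.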

Additional observations from a re-analysis of the deposited data

Results flagged for a closer look

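In groups of 5 hearts, a highest or lowest value was picked out where its gap to the next heart exceeded 0.71 of the group's range. Of 92 groups examined 11 met this, where chance would give about 4.6 for independent groups with normal spread. These groups share the same hearts, and Pdk4 was included after its values were seen, so the excess is no test. Of the 11, 8 were S1Pless replicate 3. In that heart the highest S1Pless value was 12.8 CPM for Acot1 (others 2.80 to 5.33 CPM), 68.7 CPM for Acot2 (37.9 to 46.1 CPM), 68.4 CPM for Cpt1a (38.7 to 47.1 CPM), 123 CPM for Mlycd (83.4 to 92.2 CPM) and 126 CPM for Plin5 (68.6 to 79.9 CPM). It was also 22.98 CPM for Angptl4 (1.25 to 6.02 CPM), 106 CPM for Ucp3 (7.81 to 20.9 CPM) and 1161 CPM for Pdk4 (59.1 to 130 CPM). Among controls, replicate 2 was high in Angptl4 at 17.3 CPM (others 4.69 to 7.08 CPM), replicate 3 high in Echs1 at 362 CPM (296 to 311 CPM) and replicate 1 low in Crat at 431 CPM (541 to 574 CPM).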

How the results depend on the processing

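No paired analysis was possible because the labels give no pairing of the hearts. Litter was therefore not accounted for, though the controls are called littermates. The median member was -0.28 in the main fit (all tested genes -0.01) and -0.14 with library totals alone (all tested genes 0.12). The median member stayed within 1 SD of its main value except when scaled to cardiomyocyte markers (-0.065, with all tested genes at 0.20). That SD, 0.15, is the spread between the median members of the 5 S1Pless hearts, replicate 3 included. The count of members that fell, 1 with all hearts, was 0 with library totals alone and with that scaling. It was 8 with DESeq2 (2.03% of all genes fell) and 2 with limma-voom (0.462%). With the length covariate it was 6 (270 of 12992 genes fell). Without control replicate 2 and S1Pless replicate 3 together it was 2 (0.177%), and without single hearts 0 to 6. Over all genes, 442 rose and 41 fell. With library totals alone these were 1420 and 13, with DESeq2 764 and 264, with limma-voom 529 and 60, with the length covariate 697 and 270, scaled to cardiomyocyte markers 2260 and 5, without both hearts 161 and 23, and without single hearts 118 to 504 and 8 to 85. The cause of these changes was not tested; the count of 6 came without S1Pless replicate 3, the highest S1Pless heart in all 6 genes, and is no test. Log2 fold changes turned positive for Cpt1a (0.047 with library totals alone, 0.014 without control replicate 2 in a range of -0.22 to 0.014 without single hearts, 0.13 scaled to cardiomyocyte markers), Ppard (0.10 with library totals alone, 0.0010 without both hearts, 0.19 scaled to cardiomyocyte markers, -0.12 to 0.029 without single hearts), Angptl4 (0.035 scaled to cardiomyocyte markers, 0.031 to 0.34 without control replicate 2 or S1Pless replicate 1, 2 or 4 in a range of -1.31 to 0.34 without single hearts), Hadh (0.0064 with limma-voom) and, scaled to cardiomyocyte markers, Cd36 (0.018), Acot13 (0.0020) and Eci2 (0.026). Pdk4 turned negative with limma-voom (-0.91), without both hearts (-1.39) and without control replicate 1, 3 or 5 or S1Pless replicate 3 (-1.60 to -0.052, in a range of -1.60 to 0.33 without single hearts). Depth was lowest for Angptl4 (25 to 396 counts per library) and Acot1 (59 to 221).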
